A study of Homo sapiens with 9 samples.

Results

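The comparison set SaOS2 cells that had been kept in doxycycline for 3 days and then grown for 3 days without it (recovery) against untreated cells (control). It held 3 recovery and 3 control arrays, 6 of the 9 arrays of the study, chosen by their labels. The 11887 genes with a probe detected on at least 3 of these 6 arrays were tested, with these arrays normalized and fitted alone. SaOS2 is a human osteosarcoma line with osteoblast-like traits. Here it carried a construct from which doxycycline induces an antisense RNA to APC, a tumour suppressor and core scaffold of the beta-catenin destruction complex. Recovery cells had received doxycycline at 1 µg/ml. Both groups were grown in medium with 10% serum, 100 µg/ml G418 and 50 µg/ml hygromycin, and total RNA was hybridised to single-colour bead arrays. The remaining 3 arrays, of cells taken at the end of the doxycycline treatment, enter only a check of the fit. The series holds no cells without the construct given doxycycline, so effects of the drug and of the antisense RNA cannot be told apart. No days in culture are recorded here for control cells, so effects of time in culture cannot be told apart from these either. The labels state neither whether the line is a clone nor whether the replicates were separate cultures. What the p-values weigh is therefore only how far these 6 arrays scatter, and that scatter may be technical.

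Type I interferons are secreted when cells sense foreign or misplaced nucleic acid through sensors such as RIG-I, MDA5, TLR3 and the cGAS and STING pair. They act through JAK kinases and STAT factors, which with IRF9 bind a promoter element called the interferon-stimulated response element and switch on many antiviral genes, the MHC class I pathway and chemokines that attract lymphocytes. Interferon is also known to slow cell division, and in bone it is known to restrain osteoclast formation.

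Promoter sequence was set beside the calls for the 3 gene groups that recur below. In windows from 250 bases before to 50 bases after each start site (RefSeq, GRCh38.p14), the interferon-response type motif (GAAA, any 2 bases, then GAAA), searched on both strands with overlaps allowed, was present in 3.65% of 27305 promoters. It was present in 44.9% of the genes that rose by at least 2 on the log2 scale (31 of 69 with a promoter in the table), in 13.3% of those that rose by 1 to 2 (24 of 180), in 4.0% of those that rose by less (57 of 1425), in 1.86% of genes that fell and in 2.21% of genes not called. Of the 40 largest rises 28 had a promoter in the table and 14 held the motif, against 2 of 32 for the 40 largest falls. The stretches around it are shown for 8 of the largest rises, each read 5′ to 3′ on the strand of its gene and upstream of the start site, with matches on either strand in capitals.
TNFSF10: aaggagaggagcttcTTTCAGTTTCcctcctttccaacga
BST2: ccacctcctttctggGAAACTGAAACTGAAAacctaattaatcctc
CXCL10: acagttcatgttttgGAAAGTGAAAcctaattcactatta
ISG20: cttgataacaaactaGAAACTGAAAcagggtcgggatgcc
IFI27: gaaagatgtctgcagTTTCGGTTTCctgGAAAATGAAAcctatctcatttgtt
CEACAM1: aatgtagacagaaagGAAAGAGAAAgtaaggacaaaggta
CFB: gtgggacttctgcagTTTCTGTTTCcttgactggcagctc
RTP4: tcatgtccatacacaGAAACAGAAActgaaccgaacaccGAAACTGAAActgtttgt
They lie at chr3:172523593-172523632, minus strand (TNFSF10), chr19:17405730-17405775, minus strand (BST2), chr4:76023694-76023733, minus strand (CXCL10), chr15:88638932-88638971, plus strand (ISG20), chr14:94110613-94110665, plus strand (IFI27), chr19:42528573-42528612, minus strand (CEACAM1), chr6:31945940-31945979, plus strand (CFB) and chr3:187368328-187368384, plus strand (RTP4). In BST2 a pair of matches overlap, while IFI27 has one match on each strand and RTP4 a pair on one strand.

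Promoters of G2/M genes, the list with the most falls, were searched for TTTGAA, the core of the cell-cycle homology region, and CCAAT, the box bound by NF-Y (both strands searched for each, which may overlap). TTTGAA was present in 69.0% and CCAAT in 73.8% of 42 G2/M promoters, against 15.4% and 35.7% of all promoters. Of 38 G2/M genes that fell and had a promoter in the table, 22 (57.9%) held both, against 6.08% of all promoters, 5.59% of other genes that fell and 3.93% of other genes not called. As 38 of the 42 G2/M promoters are of genes that fell, these shares describe the list. They do not compare fallen with other G2/M genes. The first example is the proliferation marker MKI67, the second the spindle protein gene DLGAP5, with matches to either motif in capitals.
MKI67: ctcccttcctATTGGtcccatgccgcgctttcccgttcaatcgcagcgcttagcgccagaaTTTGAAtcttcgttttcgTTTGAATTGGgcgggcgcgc
DLGAP5: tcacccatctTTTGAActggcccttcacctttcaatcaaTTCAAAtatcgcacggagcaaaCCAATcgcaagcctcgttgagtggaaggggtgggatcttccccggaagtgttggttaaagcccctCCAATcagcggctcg
They lie at chr10:128126433-128126531, minus strand (MKI67) and chr14:55191593-55191733, minus strand (DLGAP5). In MKI67 the copy of TTTGAA nearest the start site overlaps a reversed CCAAT. Metallothionein genes are known to be switched on by metal through elements with the core TGCGCNC or TGCACNC. On one strand or the other these were present in 29.3% of all promoters and in 38.5% of those of tested genes. The share was 34.9% among genes that rose and 29.0% among those that rose by at least 2, so it was not higher among risen genes. MT1X and MT2A each held 4 such cores in the 150 bases before the start, a shorter window than that of the shares, in capitals here.
MT1X: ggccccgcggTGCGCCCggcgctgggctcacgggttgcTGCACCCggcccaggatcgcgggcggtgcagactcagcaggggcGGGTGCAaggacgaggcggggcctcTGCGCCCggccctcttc
MT2A: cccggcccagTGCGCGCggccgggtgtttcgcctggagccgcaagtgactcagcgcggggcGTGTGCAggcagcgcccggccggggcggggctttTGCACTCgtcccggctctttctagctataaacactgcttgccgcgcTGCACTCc
They lie at chr16:56682310-56682433, plus strand (MT1X) and chr16:56608435-56608583, plus strand (MT2A). Such matches describe letters in a window and do not show binding.

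The arrays were alike within groups and well separated between them. Between 20597 and 21317 of 47322 probes were detected on recovery arrays and between 20375 and 20995 on control arrays. The first principal component held 78.1% of the variance, with recovery arrays from -30.8 to -23.7 and control arrays from 27.2 to 27.5. Over genes, the lowest correlation between arrays of one group was 0.994 and the highest between groups 0.974. Control replicate 1 had the brightest raw signal (mean 667, against 337 to 460 on the other arrays) and the highest score on the second component, 14.4, with the other controls at -7.55 and -7.23. In bulk RNA a change in the share of cells that express a gene and a change in RNA per cell cannot be told apart.

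APC, the target of the antisense RNA, lay near background at its 1 probe, whose strand was not analysed here. Its normalized log2 level was 5.46, 5.27 and 5.47 in recovery, against 5.13, 5.04 and 5.67 in control. The ranges overlapped, and the difference was 0.12 ± 0.16 (log2 ± standard error from limma, n = 3 per group, adjusted p = 0.586, 95% interval -0.24 to 0.48). Of 13 measured genes of the beta-catenin destruction complex 2 rose and 2 fell (15.4% each, against 17.3% and 16.6% of all genes). The scaffold AMER1 (0.56 ± 0.10) and the ubiquitin ligase subunit BTRC (0.37 ± 0.09) rose, and the scaffold AXIN2 (-0.36 ± 0.10) and the kinase GSK3B (-0.36 ± 0.10) fell. None of these 4 passed under median scaling, and neither fall passed without recovery replicate 2. CTNNB1, beta-catenin itself, was not called (-0.19 ± 0.11, limma adjusted p = 0.23).

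Defining genes of the osteoblast lineage were detected in both groups. Of 27 osteoblast genes 19 were measured, 4 rose (21.1%, against 17.3% of all genes) and 3 fell (15.8%, against 16.6%), with a median difference of 0.03. Without recovery replicate 1 the falls numbered 1, not 3. Mean levels were 11.51 in recovery and 11.48 in control cells for RUNX2, the master factor of the lineage, 14.34 and 14.25 for ALPL, alkaline phosphatase, and 13.13 and 13.10 for COL1A1, type I collagen, and none of these differences was called. The factors SP7 (-0.34 ± 0.10), DLX3 (-0.49 ± 0.16, with overlapping groups) and MSX2 (-0.44 ± 0.09) fell, 3 of 6 measured, and COL1A2 (0.63 ± 0.10), SPARC (0.90 ± 0.09), VDR (0.66 ± 0.15) and BMP2 (1.16 ± 0.10) rose. BGLAP, SPP1 and DMP1, genes of mature bone cells, were not among the genes measured. The markers CDH1 and KRT5 of epithelium, PECAM1 and CDH5 of endothelium and PTPRC and CD3E of blood cells were also not among them. Of 2 measured epithelial markers CLDN4 fell (-0.40 ± 0.12, a call lost under 11 of 17 alternatives) and EPCAM was not called, the 1 measured endothelial marker VWF was not called, and of 3 neural markers TUBB3 fell (-0.92 ± 0.09). Of 12 blood cell markers 3 passed the detection filter, and 1 of them, the macrophage receptor CSF1R, rose (0.64 ± 0.14). The median of these 3 relative to the control mean was 0.08 to 0.49 on recovery arrays and -0.19 to 0.12 on control arrays, and their part in the immune gene results was not tested.

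Of the 11887 genes 4037 were called at a Benjamini-Hochberg adjusted p under 0.05 (34.0%), 2062 higher (17.3%) and 1975 lower (16.6%) in recovery cells, and 5209 had an unadjusted p under 0.05. The recovery arrays all lay above the control arrays for 24.1% of genes and all below for 23.8%. Numbers were even, but sizes were not. The median called difference was 0.52 for rises and -0.48 for falls. At a size of at least 1 on the log2 scale there were 345 rises and 127 falls, at 2 there were 102 and 5, and at 3 there were 40 and none. No called fall exceeded 2.23 on the log2 scale, whereas 6 rises reached 5. For 100 of the rises no control array had detected the gene, and for 34 of the falls no recovery array had. Under median scaling in place of quantile normalization the median of all genes moved to -0.08 and 2495 genes were called, 1004 up and 1491 down, so that 40.2% of calls were rises, against 51.1% here.

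**Figure D1:**
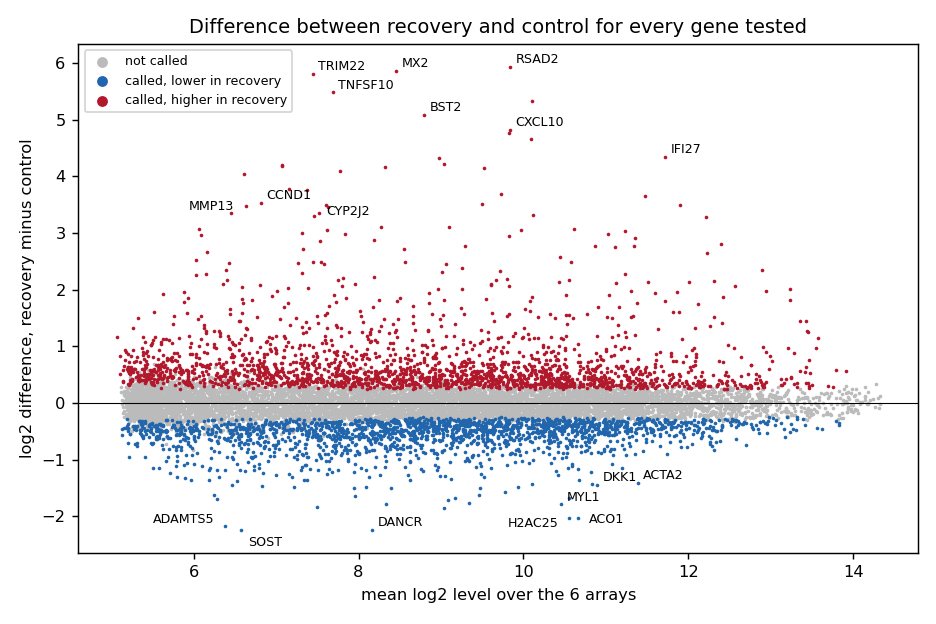
Log2 difference (recovery minus control) against the mean normalized log2 level over the 6 arrays, 1 point per gene, for 11887 genes. Called rises reach 5.93 (RSAD2), while called falls end at -2.23 (DANCR and SOST).

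Antiviral effector genes of the interferon response rose nearly throughout, and RSAD2 had the largest rise of all genes. Of 56 listed 54 were measured, 2 of which passed the detection filter through the recovery arrays alone, and 52 rose, against 17.3% of all genes. Their median difference was 2.10, against -0.01 over all genes. RSAD2, which makes an antiviral chain-terminating nucleotide (viperin), stood at 12.71, 12.96 and 12.73 in recovery, against 6.76, 6.97 and 6.88 in control. The groups lay far apart, by 5.93 ± 0.10 (limma adjusted p = 5.53e-09), a 60.9-fold difference. MX2, a dynamin-like GTPase that blocks viral nuclear entry, stood at 11.22, 11.61 and 11.34 in recovery, against 5.69, 5.55 and 5.34 in control (5.86 ± 0.13, limma adjusted p = 9.25e-09). OAS2, which makes the 2-5A messenger that activates RNase L, stood at 12.62, 12.86 and 12.81 in recovery, against 7.36, 7.33 and 7.62 in control (5.33 ± 0.11, limma adjusted p = 6.99e-09), and its 4 kept probes gave 2.72 to 5.33. All 3 genes had every recovery array above every control array, and the gap between groups exceeded the range within either.

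BST2, tetherin, which holds budding virions at the cell surface, stood at 11.23, 11.29 and 11.49 in recovery, against 6.58, 5.93 and 6.26 in control (5.08 ± 0.16). The exonuclease ISG20 stood at 12.32, 12.63 and 12.32 in recovery, against 7.64, 7.75 and 7.89 in control (4.66 ± 0.11), and IFI27 at 13.85, 13.90 and 13.92 in recovery, against 9.59, 9.52 and 9.52 in control (4.35 ± 0.08, limma adjusted p = 5.89e-09). IFI27 was detected on all control arrays, and its 3 recovery arrays lay close together. TRIM22, an antiviral ubiquitin ligase, stood at 10.22, 10.70 and 10.13 on the recovery arrays and was not detected on any control array, which puts it at least 33.4-fold higher. CMPK2, a mitochondrial nucleotide kinase, was likewise at least 7.16-fold higher. MX1 rose by 2.01 ± 0.09, ISG15, the ubiquitin-like modifier, by 1.44 ± 0.10, IFITM3, which blocks viral fusion, by 1.15 ± 0.08, and IFI44 by 0.98 ± 0.11. IFI44 stood at 14.04, 14.06 and 14.03 in recovery, against 13.30, 12.94 and 12.94 in control, and its groups did not overlap, with recovery values near the highest levels on the arrays. UBA7, the enzyme that activates ISG15, rose by 3.52 ± 0.10 and LY6E by 3.50 ± 0.11. The 2 members not called were the cytidine deaminases APOBEC3G (0.41) and APOBEC3F (-0.35).

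**Figure D2:**
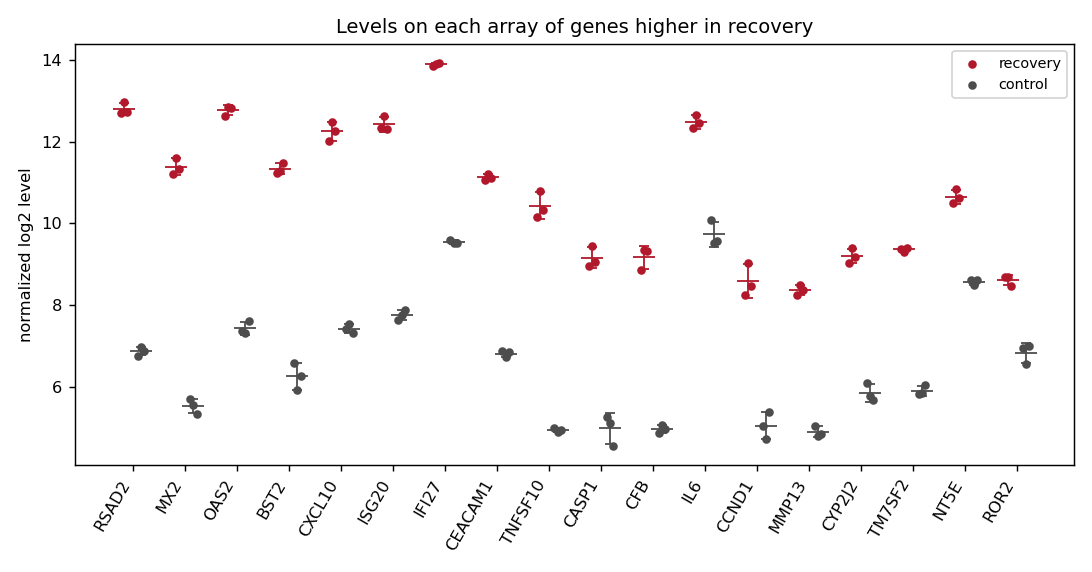
Normalized log2 level on each array for 18 genes higher in recovery, with recovery arrays to the left of control arrays, and lines for the mean ± SD (n = 3 per group). In each gene shown all 3 recovery arrays lie above all 3 control arrays, as for IL6 (12.34 to 12.66 against 9.53 to 10.09).

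Genes upstream of the effectors rose too. Of 30 measured genes for sensing and signalling 24 rose (16 under median scaling) and 1 fell (median 0.78). Of the 30, 2 passed the detection filter through the recovery arrays alone. All 6 nucleic acid sensors rose. The RNA helicase RIG-I (RIGI) stood at 10.53, 10.69 and 10.74 in recovery, against 7.41, 7.51 and 7.71 in control (3.11 ± 0.11). MDA5 (IFIH1) rose by 2.98 ± 0.10, their regulator LGP2 (DHX58) by 2.99 ± 0.11 and the endosomal receptor TLR3 by 3.50 ± 0.14, and the DNA sensing pair by 0.75 (CGAS) and 1.19 (STING1). MAVS, the mitochondrial adaptor through which RIG-I and MDA5 signal, fell, with 7.50, 7.64 and 7.33 in recovery, against 7.92, 7.82 and 7.84 in control (-0.37 ± 0.10, limma adjusted p = 0.021). That small fall lost its call under median scaling, in the fit of all 9 arrays and without recovery replicate 3 or control replicate 1.

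IFNB1, the gene of interferon beta, stood at 7.41, 7.86 and 7.54 on the recovery arrays and was not detected on any control array. It passed the detection filter through the recovery arrays alone, and was at least 4.97-fold higher. Its message was measurable 3 days after the drug had been withdrawn. Of the receptor chains and kinases IFNAR1 (0.05) and JAK1 (0.07) were not called, and JAK2 rose by 1.44 ± 0.12. All 6 measured transcription factors rose, among them IRF1 (1.80 ± 0.10), IRF9 (1.13) and BATF2, which passed the detection filter through the recovery arrays alone and was at least 4.85-fold higher. Among inhibitors SOCS1 rose by 0.81 and SOCS3 was not called (0.11).

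Genes for antigen presentation on MHC class I rose as a group, 20 of 24 measured and none lower (median 1.19). All 6 MHC chain genes rose. HLA-E, the ligand of an inhibitory receptor on natural killer cells, stood at 12.62, 12.95 and 12.88 in recovery, against 9.82, 10.06 and 9.82 in control (2.91 ± 0.12, limma adjusted p = 2.58e-07), and HLA-B rose by 1.82 ± 0.10. Probes of near-identical HLA genes may share signal. The peptide transporter subunit TAP1 rose by 2.15 ± 0.09. PSMB9, a catalytic subunit that turns the proteasome into the immunoproteasome, stood at 11.11, 11.54 and 11.25 in recovery, against 8.19, 8.25 and 8.61 in control (2.95 ± 0.14), and all 5 immunoproteasome genes rose. Of 27 measured genes of the constitutive proteasome 2 were higher and 5 lower (7.4% and 18.5%, against 17.3% and 16.6% of all genes). Their median was -0.16, and 1 was lower without recovery replicate 3. NLRC5, the transactivator of MHC class I genes, was detected, and so passed the filter, only through recovery arrays, at least 2.98-fold higher. Of 4 measured genes of the class II list 1 rose, the lysosomal protease CTSS (at least 2.96-fold). HLA-DRA was not called (-0.11 ± 0.11, limma adjusted p = 0.49, against 0.46 at its other kept probe).

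All 9 measured genes of apolipoprotein L and of guanylate-binding proteins, the latter known to attack vacuoles of intracellular pathogens, rose (median 1.87). Of these, APOL1 passed the detection filter through the recovery arrays alone. GBP4 stood at 11.37, 11.91 and 11.49 in recovery, against 7.52, 7.43 and 7.39 in control (4.14 ± 0.14), the 5 guanylate-binding genes ranged from 1.61 to 4.14, and the 4 apolipoprotein L genes from 1.44 to 2.73.

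Secreted signals to other cells rose unevenly. Of 18 measured chemokines and cytokines 10 rose and 2 fell (median 0.69). CXCL10, which attracts T cells through CXCR3, stood at 12.01, 12.48 and 12.27 in recovery, against 7.41, 7.54 and 7.32 in control (4.83 ± 0.13, limma adjusted p = 2.70e-08), and CXCL11, which acts on the same receptor, rose by 3.76 ± 0.18. The lowest recovery array of CXCL10 lay over 4 log2 units above its highest control array. The cytokine IL6 stood at 12.34, 12.66 and 12.45 in recovery, against 10.09, 9.53 and 9.57 in control (2.75 ± 0.16), IL15, which sustains natural killer cells, rose by 2.08 ± 0.08, and CXCL16 by 2.86 ± 0.13. CCL2, a monocyte attractant, fell, with 6.82, 6.72 and 6.75 in recovery, against 7.40, 7.19 and 7.13 in control (-0.47 ± 0.10, limma adjusted p = 0.00608). TNFSF13B, the B cell factor BAFF, was also called lower (-0.38 ± 0.13), but its other kept probe gave 0.31 and the call was lost in 12 of 18 alternatives. Of 21 genes of the NF-kB system 16 rose and none fell (median 0.86), subunits (RELB 1.42 ± 0.14) and inhibitors (TNIP1 1.60 ± 0.12) alike.

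Cell death genes rose in part. Of 26 measured 15 rose and 2 fell (median 0.43), and 3 of the 26 passed the detection filter through the recovery arrays alone. TNFSF10, the death ligand TRAIL, stood at 10.16, 10.80 and 10.34 on the recovery arrays and was not detected on any control array, which puts it at least 35.3-fold higher. CASP1, the caspase of inflammasomes, was at least 14.6-fold higher. The DNA sensor of the inflammasome AIM2 stood at 11.37, 11.74 and 11.40 in recovery, against 9.41, 9.45 and 9.23 in control (2.14 ± 0.12, and 0.98 at its other kept probe). MLKL, the effector of necroptosis, rose by 1.55 ± 0.11 and GSDMD, the pore of pyroptosis, by 0.89 ± 0.10. Of 11 BCL2 family genes 4 rose, among them the BH3-only gene PMAIP1 (1.77 ± 0.13) and the survival gene MCL1 (0.68), and the survival gene BCL2L1 fell (-0.49 ± 0.09). Without recovery replicate 1 the death list had 10 rises, and the fits without 1 array measured as few as 22 of its genes.

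Of 7 measured complement genes 3 rose and 1 fell, and 1 of the risers, CFB, passed the detection filter through the recovery arrays alone. Another riser, C1R, had probes called in opposite directions (1.84 at its brightest and -0.46 at its lowest). CFB, factor B of the alternative pathway, was at least 14.7-fold higher, and C1S, a protease of the classical pathway, stood at 8.73, 8.94 and 8.84 in recovery, against 6.83, 6.94 and 6.51 in control (2.07 ± 0.12). CD59, which shields cells from complement, fell (-0.68 ± 0.14). Of 10 metallothionein and zinc genes 7 rose and 1 fell (median 0.78). MT2A stood at 12.52, 12.63 and 12.53 in recovery, against 10.51, 10.69 and 10.67 in control (1.93 ± 0.09, limma adjusted p = 6.74e-07) and MT1G at 7.33, 8.11 and 7.28 in recovery, against 5.06, 5.55 and 5.06 in control (2.35 ± 0.22), highest on recovery replicate 2 and detected on 1 of the 3 control arrays. The zinc importer SLC39A14 rose (1.00 ± 0.09) and SLC39A10 fell (-0.47 ± 0.11). Near-identical metallothionein genes may share probe signal.

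Large rises were also measured in single genes of other kinds. CEACAM1, an adhesion receptor, stood at 11.06, 11.21 and 11.12 in recovery, against 6.87, 6.73 and 6.85 in control (4.32 ± 0.09, with 2.74 at the lowest of 3 kept probes). TM7SF2, a sterol reductase, stood at 9.38, 9.31 and 9.40 in recovery, against 5.82, 5.84 and 6.05 in control (3.46 ± 0.10, limma adjusted p = 2.74e-08), while of 30 measured genes of the sterol and fatty acid list, which does not hold it, 4 rose (13.3%, against 17.3% of all genes, and 2 under median scaling) and 3 fell (1 under median scaling). CYP2J2, which makes epoxides of arachidonic acid, stood at 9.04, 9.39 and 9.17 in recovery, against 6.10, 5.77 and 5.67 in control (3.35 ± 0.14). CH25H, which makes the antiviral oxysterol 25-hydroxycholesterol, rose by 2.32 ± 0.15. The collagenase MMP13, which passed the detection filter through the recovery arrays alone, was at least 8.48-fold higher. IL4I1, an amino acid oxidase, rose by 4.10 ± 0.11, and NT5E, the ectonucleotidase CD73, by 2.08 ± 0.11. CD68, a lysosomal glycoprotein, rose by 2.50 ± 0.11 in a lysosome and autophagy list of which 12 of 28 measured rose (median 0.24), or 3 under median scaling.

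Cell division genes fell together by modest amounts. Of 48 G2/M and spindle genes, all measured, 41 fell, against 16.6% of all genes, with a median of -0.55 and array medians of -0.51, -0.57 and -0.54 for recovery and -0.01 to 0.03 for control. The mitotic kinesin KIF20A stood at 10.37, 10.09 and 10.35 in recovery, against 11.15, 11.23 and 11.02 in control (-0.86 ± 0.11). MKI67, whose promoter is shown above, stood at 6.63, 6.54 and 6.59 in recovery, against 7.44, 7.29 and 7.41 in control (-0.79 ± 0.09, limma adjusted p = 0.000165). In both the groups did not overlap, and the fall was under 1 on the log2 scale. TOP2A, the topoisomerase that untangles chromosomes, fell too (-0.68 ± 0.08). All 8 centromere genes fell, with differences from -0.82 to -0.53. AURKA (-0.14) and TPX2 (-0.25) were not called. The 1 riser was FZR1, which activates the anaphase-promoting complex outside mitosis (0.53 ± 0.14, or -0.09 at its other kept probe). It lost the call with its probes averaged and without recovery replicate 2 or 3 or control replicate 2.

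Of 37 measured S phase genes 9 fell (24.3%, against 16.6% of all genes) and none rose, with a median of -0.15. Falls numbered 5 under median scaling and 6 without recovery replicate 1. Of 12 origin licensing genes 1 fell, and of 4 nucleotide supply genes 3, among them thymidylate synthase TYMS, with 11.23, 11.49 and 11.18 in recovery, against 11.86, 12.03 and 11.73 in control (-0.57 ± 0.12). CCND1, cyclin D1, rose the most of the cell cycle genes, with 8.24, 9.04 and 8.47 in recovery, against 5.04, 4.72 and 5.39 in control (3.53 ± 0.22, limma adjusted p = 4.13e-06). Its recovery arrays varied by an SD of 0.413, with replicate 2 highest, and its control arrays, of which 1 detected it, by 0.335. CDK6, a partner kinase of cyclin D1, fell (-0.55 ± 0.08), and the inhibitors CDKN1A (1.21 ± 0.11) and CDKN2B (0.99 ± 0.11) rose. Of 8 measured genes of p53-type response 3 fell and none rose, with TP53I3 at -0.85 ± 0.08 (0.11 at its other kept probe).

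Histone genes went both ways. Of 22 measured 10 rose (45.5%, against 17.3% of all genes, and 5 under median scaling) and 5 fell (22.7%, against 16.6%). In the H2A family 3 of 8 rose and 4 fell. H2AC25 fell by 2.03, and the variant H2AZ2 fell by 1.35, while H2AC18 stood at 10.50, 10.60 and 10.31 in recovery, against 9.30, 9.09 and 9.44 in control (1.19 ± 0.12). H2AC18 belongs to a run of 8 neighbouring measured genes on chromosome 1, H3C13 to H2BC21, that all rose, by 0.34 to 1.45. H2AC25 belongs to a run of 4 that all fell, with TRIM17, H2BC26 and RNF187 (-2.03 to -0.56). These runs were chosen after their values were seen, and near-identical histone genes may share probe signal. Among all genes 37.9% of the risen had a risen neighbour, against 30.1% of the genes not called, and 37.4% of the fallen had a fallen neighbour, against 29.6%. The longest run was 9 zinc finger genes on chromosome 19, ZNF28 to ZNF525, which rose by 0.28 to 2.50.

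**Figure D3:**
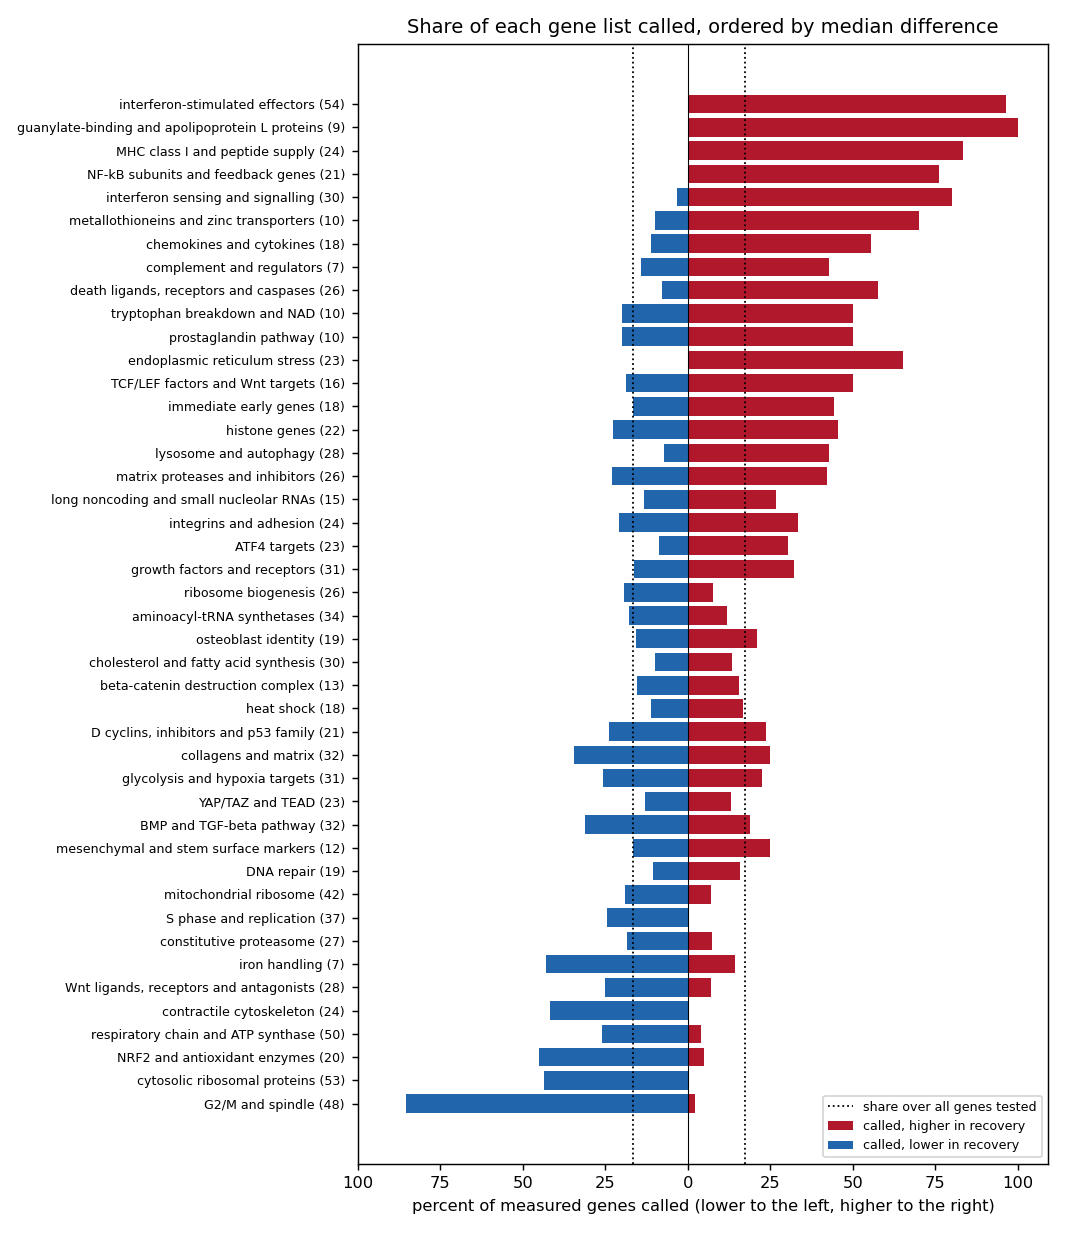
Percent of the measured genes of each gene list with over 4 measured genes called lower (left) and higher (right) in recovery, ordered by median difference, with the number measured in brackets and dotted lines at 16.6% and 17.3%, the shares over all genes. The interferon, guanylate-binding, MHC class I and NF-kB lists reach from 76.2% to 100% higher, and 85.4% of the G2/M list is lower.

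Of 7 measured Wnt antagonists 3 fell (42.9%, against 16.6% of all genes) and 4 were not called. SOST, which encodes sclerostin, a secreted Wnt inhibitor of bone, stood at 5.63, 5.27 and 5.48 in recovery, against 7.78, 7.70 and 7.59 in control (-2.23 ± 0.11, limma adjusted p = 9.26e-07). DKK1, a further secreted Wnt inhibitor, stood at 10.30, 9.90 and 10.34 in recovery, against 11.64, 11.57 and 11.63 in control (-1.44 ± 0.12, and -0.95 at its other kept probe). For both genes the groups were apart, and SOST was near background in recovery cells. Of 28 measured Wnt ligands, receptors and antagonists 7 fell (4 without control replicate 2) and 2 rose. The 2 risers of this list were the receptors ROR2 (1.79 ± 0.13) and FZD4 (1.19 ± 0.11), and the ligand WNT5A (-0.48 ± 0.12) and the antagonist FRZB (-0.44 ± 0.13) fell. Of 12 measured Wnt target genes 8 rose (66.7%, against 17.3% of all genes) and 2 fell (16.7%, against 16.6%). Of the 12, 2 passed the detection filter through the recovery arrays alone. Besides CCND1 the risers included the hyaluronan receptor CD44 (0.75 ± 0.10) and the Notch ligand JAG1 (0.62 ± 0.09), and APCDD1 (-0.52 ± 0.11) fell. Rises in the list of TCF/LEF factors and Wnt targets numbered 8 in all, 5 under median scaling and 5 without recovery replicate 2, with as few as 14 of its genes measured without 1 array.

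DANCR, a long noncoding RNA that hosts small nucleolar RNAs, stood at 7.55, 7.06 and 6.53 in recovery, against 9.28, 9.16 and 9.41 in control. Its recovery arrays varied by an SD of 0.509, the widest among the 10 largest falls, yet all lay below control (-2.23 ± 0.21, limma adjusted p = 7.38e-05). ADAMTS5, an aggrecan-cleaving protease, stood at 5.54, 5.09 and 5.26 in recovery, against 7.59, 7.37 and 7.45 in control (-2.17 ± 0.12), with detection on 1 of the 3 recovery arrays. ACO1, which doubles as an iron-sensing RNA-binding protein, stood at 9.84, 9.32 and 9.79 in recovery, against 11.67, 11.71 and 11.66 in control (-2.03 ± 0.13). Recovery replicate 2 was the lowest of the 3 for ADAMTS5 and ACO1. PROM1, a membrane protein of stem cells, fell (-1.83 ± 0.14), as did the growth factor receptors FGFR3 (-1.31 ± 0.14, and -0.37 at its other kept probe) and KIT (-1.12 ± 0.10) and the growth factor carrier IGFBP5 (-1.37 ± 0.12). HEY1, a Notch and BMP target, fell by 1.69 at its brighter probe, but its other kept probe gave 0.31.

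Contractile genes fell and none rose, 10 of 24 measured (median -0.20). Smooth muscle actin ACTA2 stood at 10.75, 10.63 and 10.67 in recovery, against 12.05, 12.11 and 12.09 in control (-1.40 ± 0.08, limma adjusted p = 3.45e-06), and its partner TAGLN at 9.00, 8.83 and 9.14 in recovery, against 10.43, 10.67 and 10.59 in control (-1.57 ± 0.11). The myosin light chain MYL1 stood at 9.92, 9.22 and 9.55 in recovery, against 11.36, 11.32 and 11.37 in control (-1.79 ± 0.16, and -1.77 at its other kept probe). Of the 10 muscle markers only CKM (-1.02 ± 0.12) and ACTC1 (-1.19 ± 0.13) were measured, and both fell. Their median relative to the control mean was -1.12 to -1.09 on recovery arrays and -0.06 to 0.09 on control arrays. ACTC1 is itself an actin gene, so these markers are not a group apart from the contractile genes, and their part in that result was not tested. Of 32 measured BMP and TGF-beta genes 10 fell (31.25%, against 16.6% of all genes) and 6 rose (18.75%, against 17.3%, and 3 under median scaling). Among ligands BMP2 rose and BMP4 fell, with BMP2 at 10.33, 10.40 and 10.20 in recovery, against 9.28, 9.10 and 9.06 in control (1.16 ± 0.10) and BMP4 at 6.45, 6.26 and 6.44 in recovery, against 7.56, 7.12 and 7.10 in control (-0.87 ± 0.13), and the target PMEPA1 fell (-1.26 ± 0.10). The antagonist GREM1 rose (0.99 ± 0.12).

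**Figure D4:**
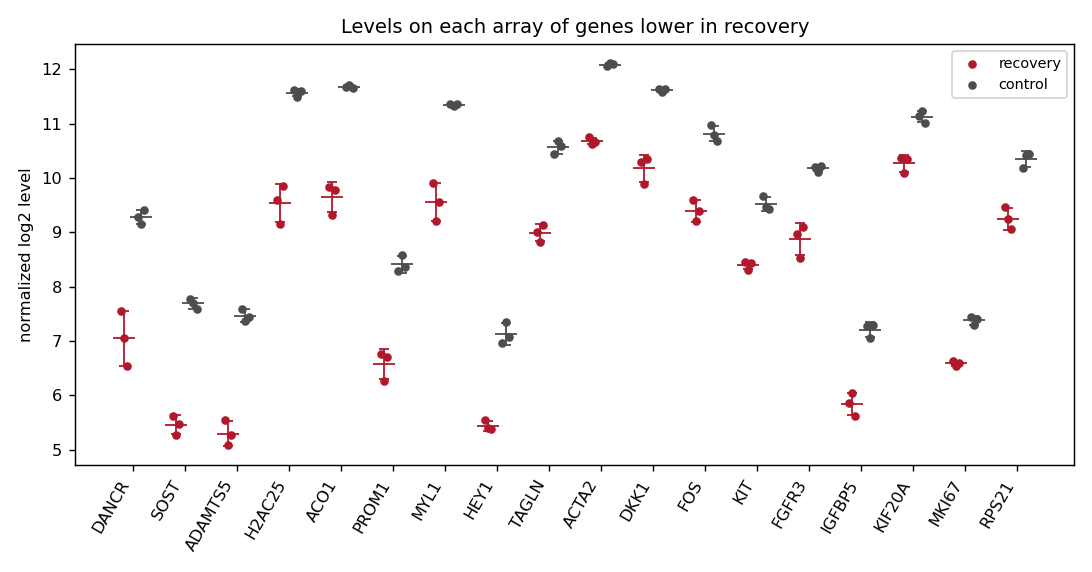
Normalized log2 level on each array for 18 genes lower in recovery, with recovery arrays to the left of control arrays, and lines for the mean ± SD (n = 3 per group). In each gene shown all 3 recovery arrays lie below all 3 control arrays, and DANCR spreads most among its recovery arrays.

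The matrix and adhesion genes moved in both directions. Of 32 measured collagen and matrix genes 8 rose (5 under median scaling) and 11 fell (7 without control replicate 1). Both shares exceeded those of all genes (17.3% higher and 16.6% lower), and the median was -0.01. DCN, the small proteoglycan decorin, stood at 13.64, 13.75 and 13.76 in recovery, against 12.92, 12.79 and 12.79 in control (0.89 ± 0.09), and SPARC, osteonectin, rose by 0.90 ± 0.09, while thrombospondin THBS1 fell, with 8.92, 8.90 and 9.02 in recovery, against 10.31, 9.95 and 9.76 in control (-1.06 ± 0.14). Among integrins ITGA2 rose (1.33 ± 0.09) and ITGAV fell (-0.92 ± 0.11). In the immediate early list 8 of 18 rose (44.4%, against 17.3% of all genes, and 5 under median scaling) and 3 fell (16.7%, against 16.6%). KLF4 (1.57 ± 0.13) and NR4A2 (1.19 ± 0.12) were higher and FOS (-1.42 ± 0.12) and KLF2 (-1.08 ± 0.09) lower. Prostaglandin genes were likewise mixed: the synthases PTGS2 (1.26 ± 0.12) and PTGES (1.16 ± 0.13) and all 3 measured receptors rose, and PTGDS (-0.83 ± 0.09) fell.

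Genes for protein folding in the endoplasmic reticulum rose, 15 of 23 measured and none lower (median 0.36), though 6 rose under median scaling. They included 11 of 13 chaperones, with HSPA5 (BiP) at 10.85, 10.80 and 10.94 in recovery, against 10.00, 9.91 and 10.03 in control (0.89 ± 0.09), and the factors XBP1 (0.94 ± 0.10) and DDIT3 (1.29 ± 0.11). Of 18 heat shock genes of the cytosol 3 were higher (none under median scaling) and 2 lower (none without recovery replicate 1). These were 16.7% and 11.1%, against 17.3% and 16.6% of all genes. Cytosolic ribosomal protein genes fell in 23 of 53 measured and rose in none (median -0.24). RPS21 stood at 9.46, 9.24 and 9.06 in recovery, against 10.19, 10.42 and 10.45 in control (-1.10 ± 0.12) and RPS7 at 7.54, 7.30 and 7.31 in recovery, against 8.38, 8.58 and 8.16 in control (-0.99 ± 0.13), while RPS12 (-0.0015) and RPS15 (-0.0006) were not called. Ribosomal protein genes have many near-identical pseudogenes that may share probe signal.

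Respiratory chain genes fell in 13 of 50 measured and rose in 2 (26.0% and 4.0%, against 16.6% and 17.3% of all genes), with a median of -0.20 and 9 to 12 falls without 1 array. There were 5 of 9 lower for ATP synthase, among them ATP5PO (-0.47 ± 0.09), and 3 of 22 lower for complex I. Neither rise passed under median scaling. Of 20 NRF2 and antioxidant genes 9 fell, led by the quinone reductase NQO1 with 10.69, 10.57 and 10.70 in recovery, against 11.39, 11.54 and 11.48 in control (-0.82 ± 0.09). The 1 riser was SOD2, the mitochondrial superoxide dismutase, which is known as an NF-kB target (1.75 ± 0.14). Without 1 array 4 to 6 of the list fell, fewest without recovery replicate 3. Glycolysis and hypoxia genes were mixed, with 7 of 31 higher (3 without recovery replicate 2) and 8 lower (3 without recovery replicate 1), or 22.6% and 25.8% against 17.3% and 16.6% of all genes, adrenomedullin ADM at 1.02 ± 0.12 and the prolyl hydroxylase EGLN3, detected on 1 of the 3 recovery arrays, at -1.32 ± 0.16.

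**Figure D5:**
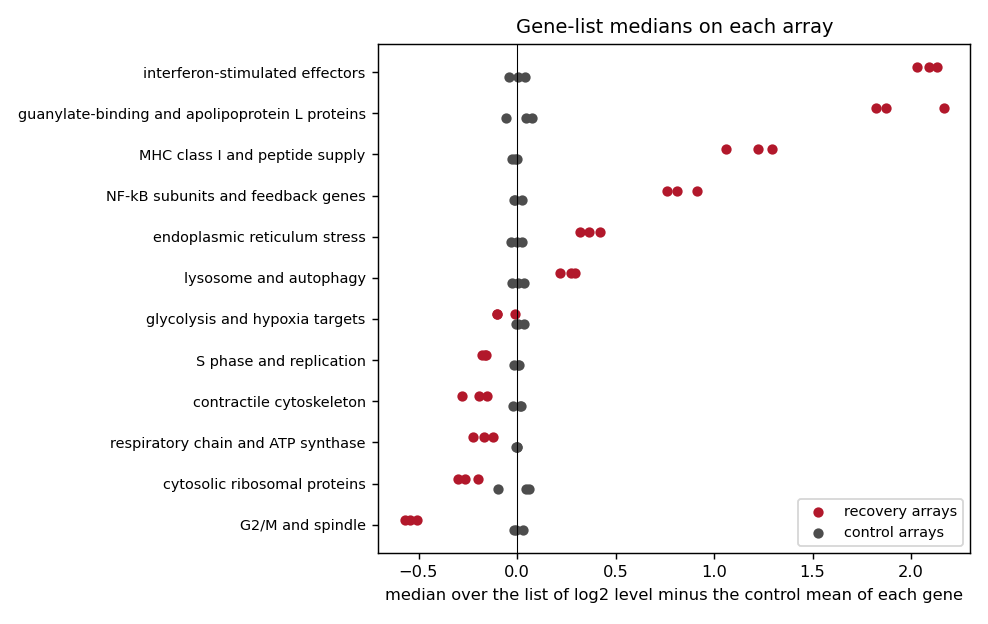
Median over each of 12 gene lists of the log2 level on an array minus the control mean of each gene, for recovery arrays (upper point of each row) and control arrays (lower). The recovery arrays of the effector list lie at 2.03 to 2.13 and those of the G2/M list at -0.57 to -0.51, and for glycolysis and hypoxia targets 1 recovery array (-0.01) lies next to the lowest control array (-0.01).

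For 3172 genes at least 2 probes were kept. In 650 of them at least 2 probes were called and all called probes agreed in direction, while 24 had probes called in opposite directions. The widest gap was in C1R, a complement protease, whose brightest probe gave 1.84 ± 0.17 and lowest -0.46. LAMP2, a lysosomal membrane protein with several splice forms, had 6 kept probes from -0.57 to 0.44, BID, a BH3-only protein, 3 from -0.55 to 0.63, and SMAD9, a BMP signal transducer, gave -0.92 ± 0.12 and 0.48. For such genes no single direction is given by the array.

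For 6304 of the 11887 the 95% interval lay within 0.5 of 0, and 202 of these were still called. For 32 genes not called the interval reached 1. A total of 2499 genes were called in every fit that left out 1 array, 1279 higher and 1220 lower.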

How the data were processed

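Total RNA of SaOS2 cells was measured on Illumina bead arrays, 9 arrays in 3 groups of 3. The deposited raw table holds the average bead intensity of each of 47322 probes, with values below 0, per the file headers, and a detection p-value per probe and array, in steps of 1 in 770 as deposited. A second deposited table holds the authors' normalized intensity values on a linear scale, with column medians of 14.39 to 14.44 and the same rank order as the raw signals, and was used as an alternative. The scanner software and the name of the normalization are not given in the sources used here, and quantile normalization was inferred from near-equal quartiles of the columns. Column codes were tied to samples through the study's own grouping and this rank order (rank correlation 1 with the matching column and at most 0.962 with any other), and 0 columns of sample values remained unassigned.

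For the 3 recovery and 3 control arrays, signals were corrected with normexp fitted from the detection p-values (offset 16), taken to log2 and quantile normalized with limma 3.58.1 in R 4.3.3. A probe was kept if 3 or more of the 6 arrays detected it at p under 0.05 (21058 probes). Of all probes 30112 had 1 gene symbol, 8 several and 17202 none in the platform annotation, and 30073 matched RefSeq. The brightest kept probe stood for its gene, and levels of different probes were not compared. Groups were compared with limma's moderated test (residual degrees of freedom 4, prior 5.23), with Benjamini-Hochberg adjustment over 11887 genes, and a gene was called at an adjusted p under 0.05. A fold written as at least N compares recovery with the detection limit of arrays on which the gene was not detected. Summaries and figures used Python 3.11.15, numpy 2.4.6, pandas 2.3.3 and matplotlib 3.10.9.

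Gene lists, and the comparison itself, were chosen with earlier results of these data known. Genes named were APC, the 30 largest rises and 30 largest falls whose arrays did not overlap, up to 8 genes of smallest p in each list with called exceptions, the 15 widest disagreements between probes, and 10 called rises and falls among the 200 brightest. Genes named beyond these, as defining members of a list or members not called, were picked after their values were seen. Alternatives changed the offset, background correction, normalization, filter, probe rule, variance prior, array weights, the set of arrays and the threshold, or left out 1 array. The number of arrays limits the precision. Neither the sequences nor the strands of probes were analysed here.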

Additional observations from a re-analysis of the deposited data

Results flagged for a closer look

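Of the 5198 kept probes that had no single gene name, 931 were called between recovery and control (17.9%), 331 higher and 600 lower. They were fitted and adjusted apart from the 11887 named genes, of which a larger share, 34.0%, was called. They belong to no comparison above, which used probes with 1 gene name, and were picked out because a difference appeared in data outside that measurement. Their genes are not named here.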

How the results depend on the processing

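Of the 4037 called genes, 1665 were called under every alternative (the size minimum aside, and genes not tested counted as lost), 738 higher and 927 lower. Median scaling gave 2495 calls (1004 higher, 1491 lower) and the fit of all 9 arrays 2393 (1265 higher, 1128 lower). A minimum difference of 1 on the log2 scale left 472 (345 higher, 127 lower). The other settings gave between 3599 and 4557. Without 1 array there were 3059 to 3591 calls, 1532 to 1847 higher and 1496 to 1744 lower, fewest in all and higher without recovery replicate 2 and fewest lower without control replicate 3. With the replicate number as a block 3969 genes were called (2005 higher, 1964 lower). Deviations of same-numbered arrays correlated at 0.107, 0.0572 and 0.0534, and those of other pairs at -0.0796 to 0.0196, so each array correlated best with its own number, which is a hint from the data and not a pairing the labels state. Averaging kept probes turned the sign of 4 genes whose probes disagree, to 0.2755 for AMY1B, 0.3781 for RIPOR3, -0.1504 for TCEA2 and -0.002554 for ZNF331. Of 398 named called genes 257 kept their call in every alternative that tested them, and 140 lost it in at least 1. Among small list medians, 8 turned below 0 under median scaling: destruction complex (-0.08), osteoblast (-0.08), heat shock (-0.13), sterol (-0.05), integrin (-0.03), growth factor (-0.04), aminoacyl-tRNA synthetase (-0.05) and ribosome biogenesis (-0.07). Genes near background limit the comparison, since a group without detection gives only a bound. The cause of these changes was not tested.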
